A study of Mus musculus with 696 samples.

Results

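Krt79, Gata6, Cst6, Defb6 and Defb1 are 5 genes associated with the duct of the upper hair follicle and are given here as a list of names. All 5 were among the 15652 genes of the count table. They were described in 696 single keratinocytes of mouse tail skin by their level on each plate, by the share of cells that held them and by how they went together within cells. The study asked what cells of the Lrig1 lineage of the hair follicle retain after a wound has healed, and how they respond when the same site is wounded again.

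All cells came from female mice of a mixed CBA C57BL/6 strain that carried both Lrig1-EGFP-ires-CreERT2 and the reporter Rosa26-fl/STOP/fl-tdTomato. Hydroxytamoxifen was put once on the tail skin of mice aged 6 to 8 weeks, so that cells with an active Lrig1 promoter, and all of their descendants, carried tdTomato from then on. The 4 groups were the unwounded skin at the start (0w), skin 1 week after a full-thickness punch of 2 mm (1w pw1), skin 8 weeks after that punch (8w pw1), and skin 1 week after a second punch that overlapped the healed site (1w pw2, week 9 of the course). The marked cells were sorted one to a well from a zone with the wound bed and the follicles distal to it, so a change in a group can come from either place. Every group had 2 plates of 79 to 91 cells. The methods name 2 independent experiments of 4 biological replicates each, but the labels do not tie a plate to a mouse, and p-values then measure only the spread between plates. Both plates of a time point carried the same further letter in their titles, a different one for each time point, so that letter and time point cannot be told apart. Mouse age and the time since labelling also rose from 0w to 1w pw2, and none of the groups was unwounded skin of a later age. Their part in a difference from 0w cannot be told apart from that of the wound.

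The pilosebaceous unit opens to the skin surface through the infundibulum, and the sebaceous gland empties into it through a duct. Lrig1 marks stem cells of the junctional zone just below, which supply the infundibulum, the duct and the gland in undisturbed skin. Duct and infundibulum cells make keratins of their own, cornify like epidermis, and make peptides that act on the microbes of the follicle opening. Among the 5 genes, Gata6 encodes a zinc finger transcription factor of duct cells, Krt79 a keratin of the duct and infundibulum, Cst6 the secreted protease inhibitor cystatin M/E, and Defb6 and Defb1 beta-defensins, which are small antimicrobial peptides.

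Krt79 lies on chromosome 15 from 101929332 to 101940324 on the minus strand and Cst6 on chromosome 19 from 5344705 to 5349574 on the minus strand (GENCODE vM21, GRCm38). The defensin genes are both on the plus strand of chromosome 8, Defb6 from 19225478 to 19228209 and Defb1 from 21776599 to 21795185. RefSeq promoter windows were matched for Krt79 and Defb6. Their 250 bases before the gene start are shown, 5′ to 3′ on the gene's strand, since Gata6 is itself one of the genes described and GATA factors bind a known core. Capitals mark AGATAA or its reverse complement TTATCT, the only letters searched.
Krt79, GRCm38.p6, chr15:101940325-101940574, minus strand: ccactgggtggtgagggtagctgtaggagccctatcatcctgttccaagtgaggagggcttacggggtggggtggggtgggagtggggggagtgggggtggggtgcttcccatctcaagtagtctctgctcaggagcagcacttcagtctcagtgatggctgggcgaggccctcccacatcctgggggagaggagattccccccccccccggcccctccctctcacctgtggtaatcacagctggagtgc
Defb6, GRCm38.p6, chr8:19225228-19225477, plus strand: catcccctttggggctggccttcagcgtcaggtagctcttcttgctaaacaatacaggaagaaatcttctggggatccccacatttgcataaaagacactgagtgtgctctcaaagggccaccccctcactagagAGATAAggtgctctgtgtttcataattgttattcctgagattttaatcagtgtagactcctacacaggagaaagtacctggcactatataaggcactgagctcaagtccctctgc
The Defb6 window held 1 match, which began 115 bases before the gene start, and the Krt79 window held 0. Of 32851 mouse promoter windows of the same length, 9.99% held a match on either strand. A match is a description of the letters and no evidence of binding.

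Counts per plate summed to between 12293182 and 19760820, and the median cell held between 64980 counts (8w pw1 replicate 2) and 256588 counts (1w pw1 replicate 2). The median mitochondrial share of a cell was 22.7% and 30.7% on the 0w plates, 17.9% and 23.9% at 1w pw1, 18.2% and 22.1% at 8w pw1, and 14.3% and 13.0% at 1w pw2, the lowest, and it is part of the total behind each CPM. Lrig1, the gene that drives the label, stood at 17.0 to 45.0 CPM (counts relative to the total of the plate, scaled by TMM) on the 8 plates. Markers of immune cells (3 of 5 in the table) summed to 0.214 to 18.4 CPM, those of fibroblasts (3 of 4) to 0.152 to 18.1 CPM and those of melanocytes (2 of 3) to 1.61 to 7.64 CPM, per plate. Of the endothelial markers, Pecam1 stood at 109 to 1846 CPM while Kdr did not exceed 0.261 CPM. Sebaceous gland markers differed between replicate plates, with 1082 and 7598 CPM at 0w and 1120 and 3832 CPM at 8w pw1. Their part in the results was not tested. In sums over a plate, fewer cells with a gene and less of its RNA in each cell cannot be told apart.

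In plate sums, where deeper cells weigh more, levels of Krt79 and Cst6 on both plates of every later time point were above those of both 0w plates, while Gata6 and Defb1 overlapped with 0w, and so did Defb6 except at 1w pw1. None of the 5 passed the test across all genes in any of the 6 comparisons (edgeR's quasi-likelihood test, Benjamini-Hochberg adjusted p under 0.05 and a fold over 2). The test called 0.527% of 13853 genes between 1w pw1 and 0w, 0.267% between 1w pw2 and 0w, 0.00722% between 1w pw2 and 8w pw1, and 0% in each of the other 3 comparisons. DESeq2 also called 0 of the 5 genes in each comparison, against 5.32%, 1.24% and 5.17% of the genes with an adjusted p for the wounded time points against 0w in their order, 2.11% for 1w pw2 over 8w pw1, 0.314% for 1w pw2 over 1w pw1, and 0.556% for the difference between the healings.

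Gata6, the transcription factor, is annotated on chromosome 18 and, like the other 4, as protein coding. It had the lowest level of the 5. Its plates stood at 41.6 and 25.2 CPM at 0w, 16.4 and 31.5 CPM at 1w pw1, 38.5 and 64.4 CPM at 8w pw1, and 22.9 and 42.6 CPM at 1w pw2. The plates of all 4 time points overlapped, apart from 8w pw1 against 1w pw1, where both plates at 8w pw1 were the higher ones. One cell held 48.7% of the Gata6 counts of 8w pw1 replicate 2, and in the mean CPM over cells, which weights cells equally, 8w pw1 (53.0 and 27.5) overlapped with 1w pw1 (30.1 and 27.9). Against 0w, the log2 fold change was -0.48 (SE 0.59) at 1w pw1, 0.62 (SE 0.59) at 8w pw1 and -0.03 (SE 0.59) at 1w pw2, with an edgeR adjusted p of 0.835, 0.896 and 0.991. Leaving out 1 plate moved the value at 1w pw1 from -1.02 (without 1w pw1 replicate 2) to -0.10 (without 1w pw1 replicate 1). The value at 8w pw1 was 0.10 without the deepest cell of each plate and -0.042 with every cell scaled equally.

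Krt79, the keratin, stood at 1114 and 1659 CPM on the 0w plates. At 1w pw1 its plates held 3445 and 4837 CPM, at 8w pw1 2886 and 5210 CPM, and at 1w pw2 4199 and 4378 CPM. Each of the 6 later plates was above both 0w plates, and the 3 later time points overlapped. With cells weighted equally, the mean was 1251 and 1399 CPM at 0w and 2851 to 5525 CPM later. Against 0w the log2 fold change of Krt79 was 1.58 (SE 0.46) at 1w pw1, 1.55 (SE 0.46) at 8w pw1 and 1.63 (SE 0.46) at 1w pw2. One cell held 41.8% of the Krt79 counts of 8w pw1 replicate 2, and the value at 8w pw1 was 0.99 without that plate and 1.06 without the deepest cell of each plate. The unadjusted edgeR p was 0.00666, 0.00747 and 0.0056, and the adjusted p was 0.193, 0.676 and 0.191. With the replicate number as a block, Krt79 passed at 1w pw1 against 0w, with a log2 fold change of 1.59 (SE 0.32) and an adjusted p of 0.0473, the lowest of the adjusted p-values over the settings tried, which ran up to 0.755.

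Cst6, the protease inhibitor, stood at 4451 and 3534 CPM at 0w, 10232 and 8526 CPM at 1w pw1, 9915 and 11194 CPM at 8w pw1, and 20966 and 6366 CPM at 1w pw2. As for Krt79, no later plate reached down to the 0w plates in these sums. In the mean CPM over cells, Cst6 overlapped with 0w (9815 and 2637) at each later time point, whose lower plates held 8585, 9722 and 8714. The top 5 cells held 81.8% and 80.9% of the Cst6 counts of the 0w plates. The 1w pw2 plates lay on either side of all 4 other wounded plates. The log2 fold change against 0w was 1.23 (SE 0.54) at 1w pw1, 1.40 (SE 0.54) at 8w pw1 and 1.78 (SE 0.55) at 1w pw2, and the edgeR adjusted p was 0.421, 0.738 and 0.232. Without 1w pw2 replicate 1, the log2 fold change at 1w pw2 was 0.65.

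Of the 5 genes, 2 (Krt79 and Cst6) had an unadjusted edgeR p under 0.05 in each of these 3 comparisons, both of them higher than at 0w, beside 11.5%, 6.47% and 12.6% of all genes in either direction. Both plates were above both 0w plates for 23.0% of all genes in the 1w pw1 skin, 17.8% in the 8w pw1 skin and 21.5% in the 1w pw2 skin. That was so for Krt79, Cst6 and Defb6 at 1w pw1, and for Krt79 and Cst6 at the later time points. These 3 comparisons share the 0w plates.

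Defb6, one of the defensins, varied most between replicate plates at 0w. It stood at 1434 and 8126 CPM at 0w, 8811 and 10133 CPM at 1w pw1, 6408 and 11080 CPM at 8w pw1, and 4249 and 1875 CPM at 1w pw2. Both plates at 1w pw2 were below all 4 plates of 1w pw1 and 8w pw1 in these sums. In the mean CPM over cells, 1w pw2 (5611 and 2302) was still below 1w pw1 (10031 and 8842) and overlapped with 8w pw1 (5151 and 4364). The log2 fold change was 0.99 (SE 0.73) for 1w pw1 against 0w, -1.51 (SE 0.73) for 1w pw2 against 8w pw1 and -1.63 (SE 0.74) for 1w pw2 against 1w pw1, with an edgeR adjusted p of 0.686, 0.652 and 0.781. With every cell scaled equally, the second of these fold changes was -0.31. One cell held 57.9% of all Defb6 counts of 0w replicate 2 and 1 cell held 48.2% of those of 8w pw1 replicate 2. The log2 fold change of 1w pw1 against 0w was 0.18 without 0w replicate 1 and 2.71 without 0w replicate 2. Without the latter plate, that of 1w pw2 against 0w turned from -0.64 to 1.08.

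Defb1, the other defensin, stood at 127 and 582 CPM at 0w, 240 and 440 CPM at 1w pw1, 362 and 626 CPM at 8w pw1, and 198 and 163 CPM at 1w pw2. Both 1w pw2 plates were again below the plates of 1w pw1 and 8w pw1. The log2 fold change of 1w pw2 was -1.45 (SE 0.68) against 8w pw1 and -0.91 (SE 0.67) against 1w pw1, with an edgeR adjusted p of 0.642 and 0.815. With every cell scaled equally, the first was -0.58. A single cell held 58.5% of its counts on 0w replicate 2, and its change from 0w to 1w pw1, -0.06 (SE 0.67), took either sign over the settings tried.

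For 1w pw2, 16.3% of all genes had both plates below both 8w pw1 plates and 17.4% had both below both 1w pw1 plates. In plate sums, Defb6 and Defb1 were the 2 of the 5 for which this was so, in both comparisons, which share the 1w pw2 plates. Over the 5 genes the median log2 fold change from 0w was 0.99 to 1w pw1, 0.87 to 8w pw1 and -0.03 to 1w pw2. Over all genes it was -0.04, 0.07 and 0.05. The medians of the 5 genes depended on single 0w plates. Without 0w replicate 1, the median at 1w pw1 was 0.18 (Defb6). Without 0w replicate 2, it was 1.84 (Krt79) at 8w pw1 and 1.08 (Defb6) at 1w pw2.

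**Figure D1:**
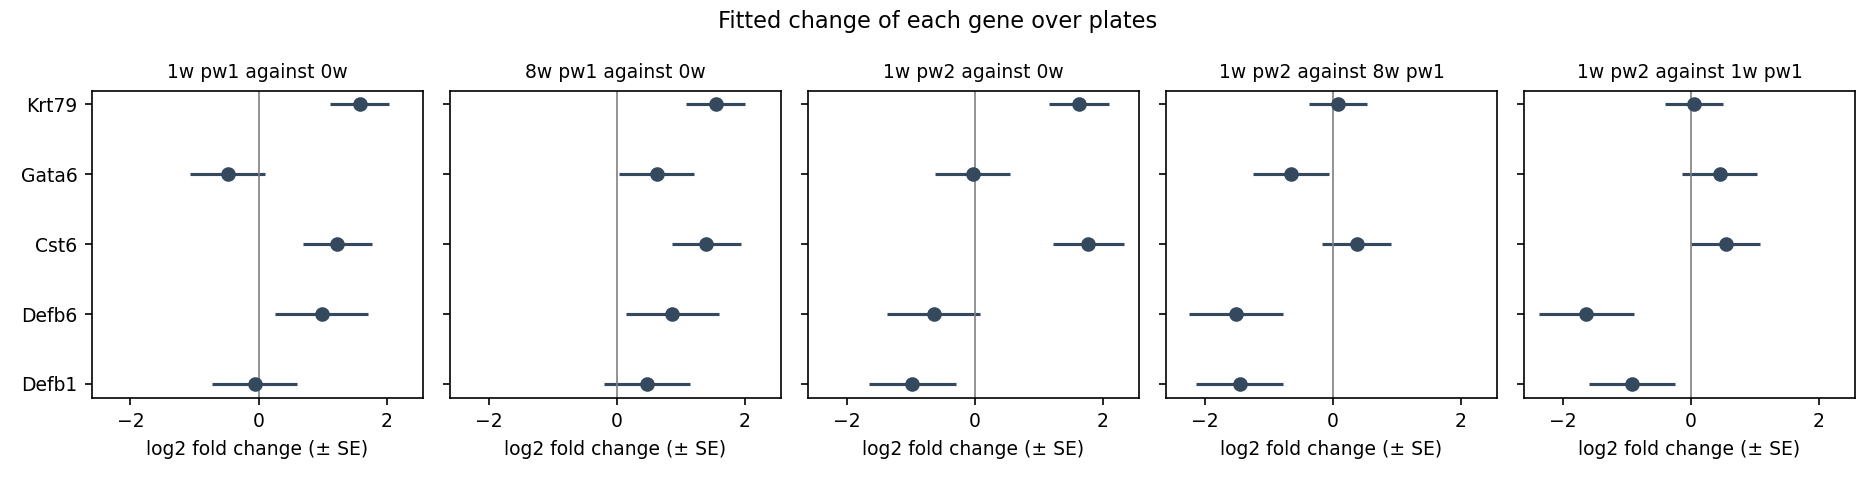
Log2 fold change of each gene in 5 comparisons between time points, from edgeR, with its SE as a horizontal bar and 0 as a grey line. Krt79 and Cst6 lie between 1.23 and 1.78 in the 3 comparisons with 0w, and both defensins lie between -0.91 and -1.63 in the comparisons of 1w pw2 with 8w pw1 and 1w pw1.

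The second healing was set against the first by taking the log2 fold change of 1w pw2 over 8w pw1 and subtracting that of 1w pw1 over 0w. This difference was -2.50 (SE 1.03) on the log2 scale for Defb6, -1.50 (SE 0.64) for Krt79, -1.39 (SE 0.95) for Defb1, -0.86 (SE 0.76) for Cst6 and -0.17 (SE 0.83) for Gata6. Of these, Defb6 (unadjusted edgeR p = 0.0357, adjusted p = 0.922) and Krt79 (unadjusted p = 0.0425, adjusted p = 0.925) had an unadjusted p under 0.05, as had 5.34% of all genes, and 0 passed after adjustment by either edgeR or DESeq2. Defb6 was higher on both plates at 1w pw1 than at 0w and lower on both plates at 1w pw2 than at 8w pw1, whereas Krt79 was higher in the first healing and overlapped in the second, which started from a higher level. The first healing in this difference, 1w pw1 against 0w, moved when a 0w plate was left out. It was 0.18 without 0w replicate 1 and 2.71 without 0w replicate 2 for Defb6, and -0.81 and 1.41 for Defb1.

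Per kilobase of the longest coding transcript, the mean level over the 8 plates was 20169 CPM for Defb6 (323 bases), 2379 CPM for Cst6 (3951 bases), 1653 CPM for Krt79 (2097 bases), 392 CPM for Defb1 (872 bases) and 10.9 CPM for Gata6 (3234 bases). The order was the same with the length of all exons together. At 0w, Cst6 (1011 ± 164 CPM per kilobase, SD, n = 2) and Krt79 (661 ± 184) did not overlap, whereas Krt79 and Defb1 (406 ± 369) did. Defb6 at 0w had an SD as large as its mean (14799 ± 14651).

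Between 33.5% and 51.5% of cells held each gene at 0w, where a cell counted as positive with 1 count or more. Cst6 was in 55.7% and 47.3% of cells at 0w, in 87.6% and 93.7% at 1w pw1, in 62.4% and 47.1% at 8w pw1, and in 82.6% and 86.8% at 1w pw2. Exact binomial 95% intervals, which cover counting error only, did not overlap between any plate of the healing skin (lowest bound 72.9%) and any plate of the other skin (highest bound 72.6%). Positive cells of Defb6 made up 35.2% and 36.3% at 0w, 56.2% and 65.8% at 1w pw1, 44.7% and 36.8% at 8w pw1, and 70.9% and 65.9% at 1w pw2. The order was thus low, high, low and high for both genes.

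Krt79 was in 37.5% and 50.5% of cells at 0w, 55.1% and 57.0% at 1w pw1, 48.2% and 42.5% at 8w pw1, and 64.0% and 61.5% at 1w pw2. For Krt79, Cst6 and Defb6, the 4 plates taken 1 week after a wound were all above the 4 other plates, as they were for 14.5% of the 10231 genes found in at least 10% of cells. Defb1 was in 35.2% and 31.9% of cells at 0w, 48.3% and 51.9% at 1w pw1, 35.3% and 26.4% at 8w pw1, and 33.7% and 36.3% at 1w pw2, with both 1w pw1 plates above both 0w plates, as for 38.1% of genes. Gata6 was in 39.8% and 27.5% at 0w, 32.6% and 36.7% at 1w pw1, 42.4% and 25.3% at 8w pw1, and 39.5% and 34.1% at 1w pw2, and its plates overlapped throughout.

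Cells were sequenced more deeply at 1w pw1 than at 8w pw1, which can move shares of positive cells. Thinned to 20000 counts a cell, with 645 of 696 cells deep enough, the mean share of Cst6 was 38.1% at 0w and 42.1% at 8w pw1, against 71.9% at 1w pw1 and 72.4% at 1w pw2. For Defb6 it was 30.8% and 37.7%, against 54.0% and 59.5%. The 4 plates of healing skin remained above the other 4 for Cst6 and Defb6, as for 7.72% of genes, and no longer did so for Krt79, where 1w pw1 replicate 1 (46.0%) lay below 0w replicate 2 (48.6%). Thinned shares of Defb1 were 29.0% and 30.2% at 0w, 41.9% and 40.5% at 1w pw1, 27.9% and 22.4% at 8w pw1, and 27.3% and 28.3% at 1w pw2. Both 1w pw1 plates were above both 0w plates, as for 22.1% of genes, and the plates of 8w pw1 and of 1w pw2 were below them, as for 20.9% of genes in either comparison.

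**Figure D2:**
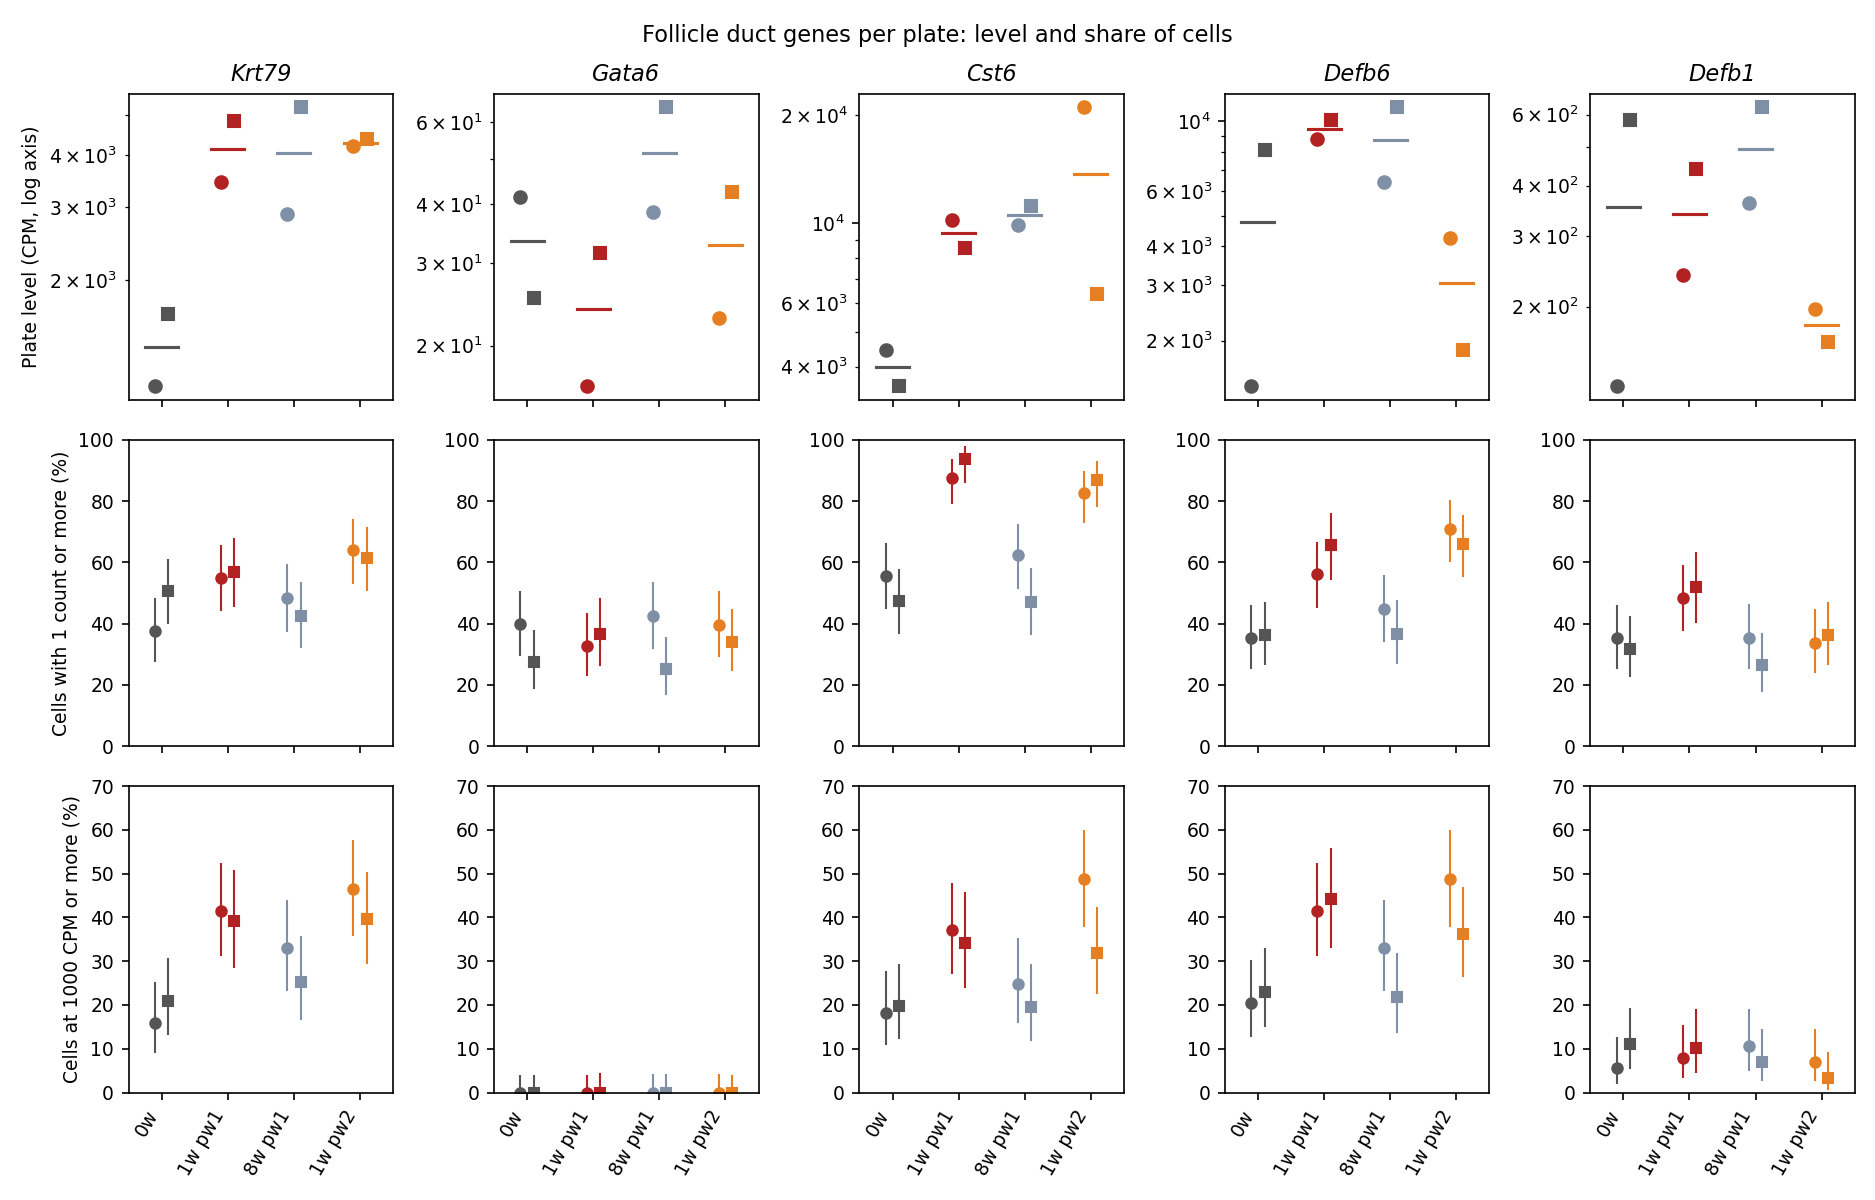
Plate level in CPM on a log axis (top row, bar at the mean of both plates), share of cells with at least 1 count (middle row) and share of cells at 1000 CPM or more (bottom row), in percent, for each gene and time point. Circles are replicate 1, squares replicate 2, and vertical lines exact binomial 95% intervals. Cst6 alternates between 47.1% to 62.4% of cells at 0w and 8w pw1 and 82.6% to 93.7% at 1w pw1 and 1w pw2.

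Many positive cells held little of a gene, which showed in a stricter threshold of 1000 CPM chosen after the data were seen. Cells over it made up 15.9% and 20.9% for Krt79 at 0w, 41.6% and 39.2% at 1w pw1, 32.9% and 25.3% at 8w pw1, and 46.5% and 39.6% at 1w pw2. Cst6 was over it in 18.2% and 19.8% of cells at 0w, 37.1% and 34.2% at 1w pw1, 24.7% and 19.5% at 8w pw1, and 48.8% and 31.9% at 1w pw2. Defb6 was over it in 20.5% and 23.1% at 0w, 41.6% and 44.3% at 1w pw1, 32.9% and 21.8% at 8w pw1, and 48.8% and 36.3% at 1w pw2. For all 3 genes, each plate of healing skin was above each of the other 4 plates, as was the case for 0.538% of genes, and for 9.37% of the 459 genes that reached 1000 CPM in 10% of the cells of any plate. Defb1 passed it in 3 to 10 cells of a plate. No cell of any plate reached 1000 CPM of Gata6. The exact interval of that share reached up to 4.56% on the plate with the fewest cells.

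Among positive cells alone, the level of Krt79 was lowest at 0w. The median positive cell held 260 and 566 CPM on the 0w plates, 7013 and 6444 CPM at 1w pw1, 4903 and 3312 CPM at 8w pw1, and 6736 and 3720 CPM at 1w pw2. All 6 later plates were above both 0w plates, and 8w pw1 was above 0w although its share of positive cells was not. In this measure 6.89% of genes had both 1w pw1 plates above both 0w plates, 23.1% both 8w pw1 plates and 17.7% both 1w pw2 plates.

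For Cst6 the median positive cell held 152 and 194 CPM at 0w and from 226 to 493 CPM on the later plates, apart from 2739 CPM on 1w pw2 replicate 1. For Defb6 it held 1769 and 6289 CPM at 0w, 16095 and 4229 CPM at 1w pw1, 5583 and 5178 CPM at 8w pw1, and 2813 and 1299 CPM at 1w pw2. Defb6 was thus in more cells at 1w pw2 than at 8w pw1 and at a lower median level in them, with both plates higher in the first measure for 35.7% of genes and lower in the second for 22.5%. The medians are over different sets of positive cells, so a lower median need not mean less Defb6 in the same cells. Cells at 1000 CPM or more of Defb6 made up 32.9% and 21.8% at 8w pw1 and 48.8% and 36.3% at 1w pw2. The median positive cell held 152 to 524 CPM of Defb1 and 38.7 to 104 CPM of Gata6, with no time point apart from the rest for Gata6.

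**Figure D3:**
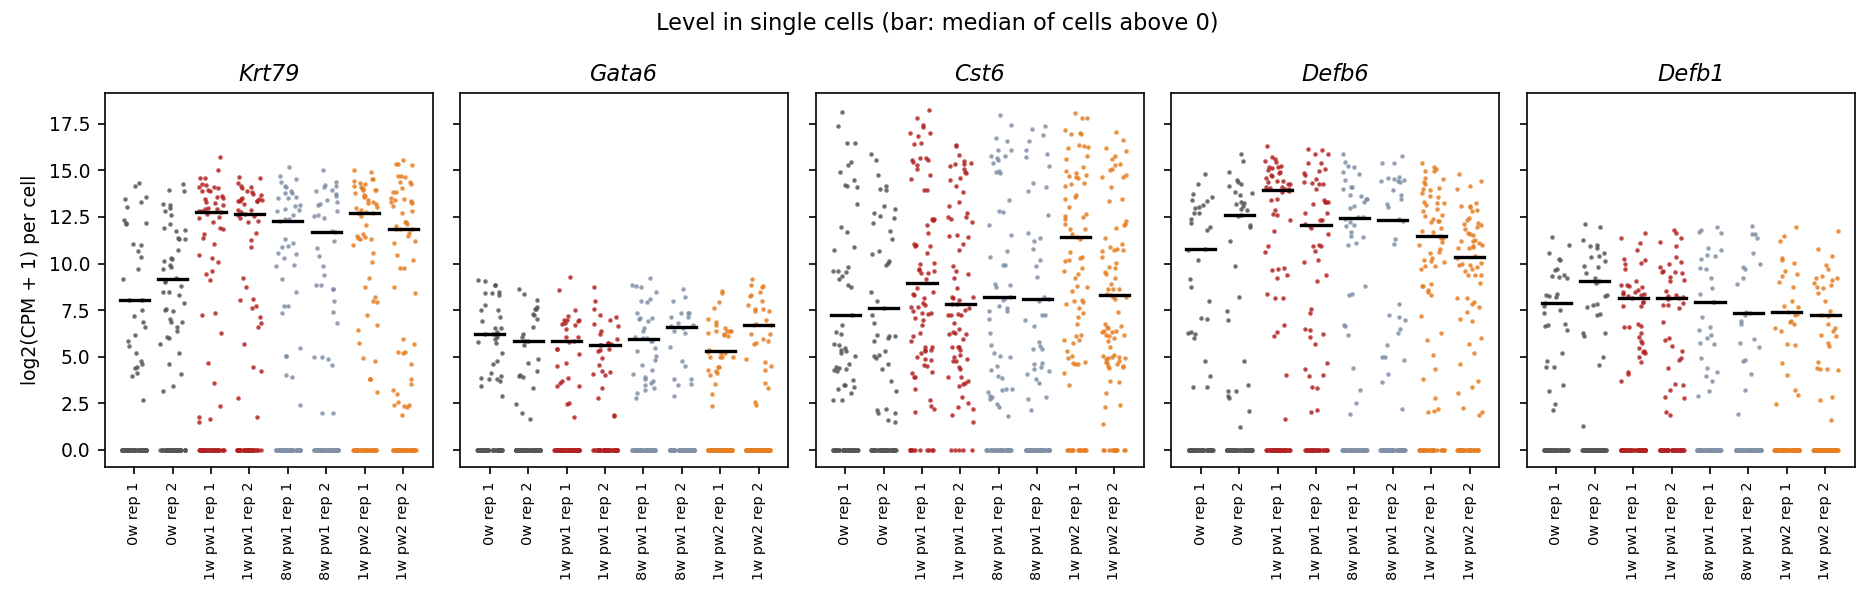
Level of each gene in every cell, as log2(CPM + 1), by plate, with a black bar at the median of the cells above 0. Cst6 and Krt79 spread over a wide range on every plate, and the Krt79 bar is lower on the 0w plates (260 and 566 CPM) than on the 6 later plates (3312 to 7013 CPM).

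At least 3 of the 5 genes were found in 37.5% and 31.9% of cells at 0w, 49.4% and 54.4% at 1w pw1, 40.0% and 27.6% at 8w pw1, and 59.3% and 58.2% at 1w pw2. This count rises with the share of each gene alone. A value for genes independent of each other was not computed, so the count does not show that the genes went together. The 4 plates of healing skin were above the other 4, also after thinning to 20000 counts, where the means of the time points were 27.8%, 43.5%, 32.0% and 47.7%. Cells with none of the 5 made up 18.2% and 23.1% at 0w, 18.8% and 29.9% at 8w pw1, and 3.80% to 5.49% on the plates of healing skin. All 5 were in 10.2% and 14.3% of cells at 0w, 21.3% and 31.6% at 1w pw1, 25.9% and 17.2% at 8w pw1, and 18.6% and 17.6% at 1w pw2. For this last measure the 0w plates were the lowest, and 8w pw1 overlapped with both healing time points.

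**Figure D4:**
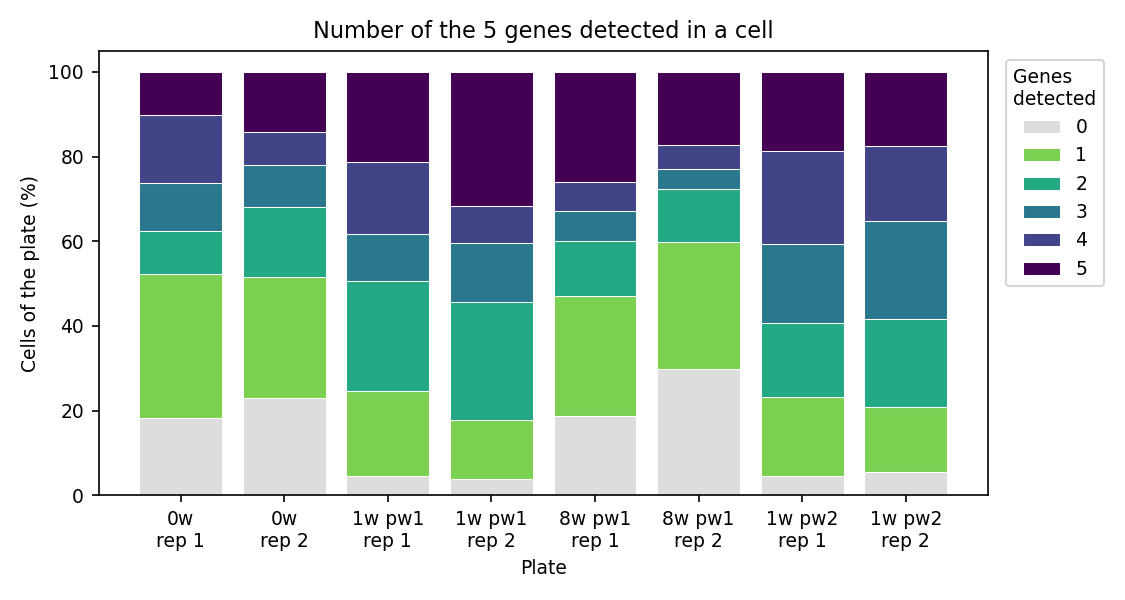
Share of cells of each plate, in percent, by how many of the 5 genes were found in the cell with at least 1 count. Grey cells with none of the genes make up 18.2% to 29.9% at 0w and 8w pw1 and 3.80% to 5.49% at 1w pw1 and 1w pw2.

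Cells with Gata6 held the other duct genes more often than cells without it. On the plates of wounded skin, Krt79 was found in 86.1% to 96.6% of Gata6-positive cells, against 42.9% and 72.0% at 0w. Without Gata6, 20.4% to 46.2% of cells held Krt79 over all plates. Defb6 was in all 29 Gata6-positive cells of each 1w pw1 plate, in 83.3% to 97.1% on the 8w pw1 and 1w pw2 plates and in 65.7% and 72.0% at 0w, against 15.1% to 53.8% of the cells without Gata6. In the other direction, Gata6 was in 39.1% to 75.6% of Krt79-positive cells. For each of the 10 pairs of the 5 genes, one gene was more often found in cells with the other than in cells without it on 8 of 8 plates, as was the case for 14.7% of all pairs of the 10231 genes.

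Over the cells of a plate, Cst6 and Defb6 had the highest Pearson correlation of log2(CPM + 1), with a median of 0.84 over the 8 plates and a range of 0.73 to 0.89. Krt79 followed with Defb6 at 0.76 (0.64 to 0.88) and with Cst6 at 0.71 (0.57 to 0.78). Gata6 had a median of 0.63 to 0.65 with these 3 genes. Defb1 was the least coupled, from 0.37 with Krt79 to 0.54 with Cst6. The cells of a plate share a library and differ in depth, and the correlation of each gene with the log10 total count of the cell had a median between -0.03 and 0.15, with values on single plates from -0.36 to 0.32 (both for Krt79).

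Coupling differed between plates. The correlation of Krt79 and Gata6 was 0.22 and 0.46 at 0w, 0.58 and 0.76 at 1w pw1, 0.76 and 0.72 at 8w pw1, and 0.64 and 0.61 at 1w pw2, so that both 0w plates lay below the 6 later ones. That was so for 2 of the 10 pairs, this one and Gata6 with Cst6, and for 4.21% of all gene pairs. Over the 10 pairs the median was 0.42 on 0w replicate 1 and 0.56 to 0.76 on the other plates, with 0w replicate 2 (0.59) above 1w pw2 replicate 2 (0.56).

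The genes were also set against summed marker lists, whose CPM here and above carry no TMM scaling. With the junctional zone list (Lrig1, Lgr6 and Plet1), all 5 correlated above 0 on 8 of 8 plates, with medians of 0.44 for Gata6 to 0.54 for Krt79, as for 13.4% of genes. Plet1 gave most of that sum, and without it the medians were 0.31 to 0.40, above 0 on 8 of 8 plates for 4 of the genes and on 7 for Defb6 (7.21% of genes on 8). With the bulge list (Cd34, Lgr5, Krt15, Postn and Lhx2), all 5 correlated below 0 on 8 of 8 plates, from -0.23 for Gata6 to -0.35 for Krt79, as for 5.90% of genes. Without Postn, which the study takes as an infundibulum marker and which was up to 1221 CPM, the medians were -0.14 for Gata6 to -0.29 for Krt79, below 0 on 8 of 8 plates for 4 of the genes and on 7 for Cst6 (6.79% of genes on 8). Krt79 was the only gene of the 5 above 0 on 8 of 8 plates with the sebaceous gland list (median 0.24, 0.03 to 0.37). That was so for 17.9% of all genes. The other 4 had medians of -0.07 to 0.01, and their difference from Krt79 was not tested. Krt79 was also the one gene below 0 on 8 of 8 plates with the wound keratins Krt6a, Krt6b and Krt16 (median -0.20, below 0 on all for 0.860% of genes), against -0.15 to 0.14 for the others.

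Markers of differentiated epidermis (Krt1, Krt10, Krtdap, Sbsn and Lor) correlated above 0 on 8 of 8 plates with Cst6 (median 0.47), Defb6 (0.36) and Defb1 (0.16), on 7 of 8 with Gata6 (0.19) and on 4 of 8 with Krt79 (0.06). Of all genes, 5.84% were above 0 on 8 of 8. Their summed level moved with the healing plates, with 2641 and 3004 CPM at 0w, 31647 and 31891 CPM at 1w pw1, 5807 and 4353 CPM at 8w pw1, and 15589 and 24511 CPM at 1w pw2. Wound keratins did so as well, from 51.8 to 58.7 CPM at 0w to 6452 to 10800 CPM at 1w pw1. They stood at 383 to 426 CPM at 8w pw1, still above 0w, and at 1587 to 2630 CPM at 1w pw2. Of these lists, Krt10, Krt6a and Krt16 passed the edgeR test at 1w pw1 against 0w (adjusted p of 0.0276, 0.00137 and 0.00153), as did Krt6b, which had 0 counts at 0w. Krt6a, Krt16 and Krt6b passed at 1w pw2 against 0w as well (edgeR adjusted p of 0.0121, 0.00651 and 0.00651). The part of this shift in the shares of Cst6 and Defb6 was not tested.

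**Figure D5:**
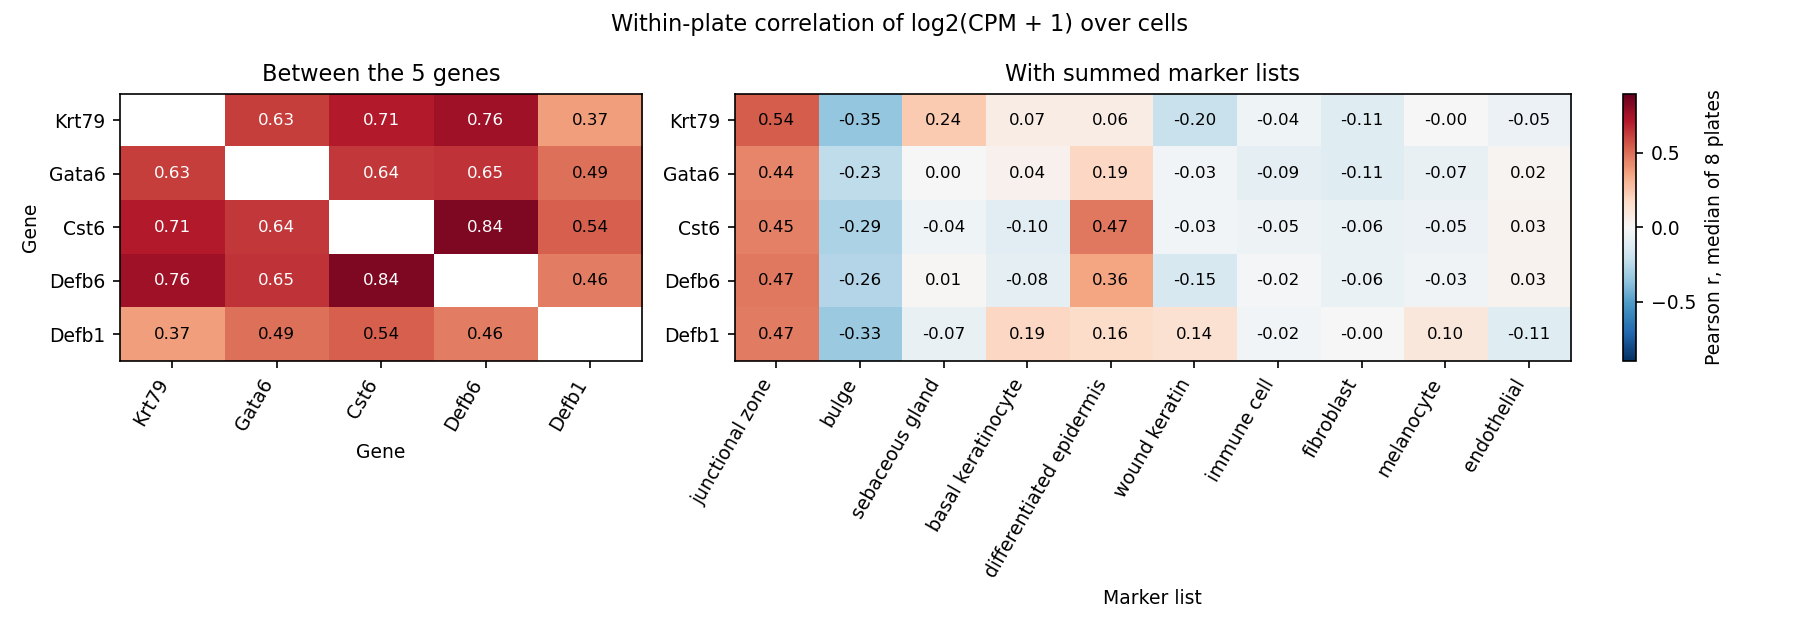
Pearson correlation of log2(CPM + 1) over the cells of a plate, as the median of 8 plates, between the 5 genes (left) and between each gene and the summed CPM of marker lists (right), on a colour scale from blue (below 0) to red (above 0). The block of Krt79, Gata6, Cst6 and Defb6 lies at 0.63 to 0.84, Defb1 at 0.37 to 0.54, and the bulge column is below 0 for each gene.

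Of the 10226 other genes found in at least 10% of cells, those most like the 5 genes were picked by their mean within-plate correlation over the 8 plates. For the summed level of the 5, they included Ly6g6c (0.70), Skint3 (0.67), Egr2 (0.66), Psapl1 (0.62), Nebl, Ano9, Ptgr1, Atp6v1c2 and Sprr1a (0.60), against a median of 0.00 over all of these genes. Ly6g6c led for Cst6 (0.81, range 0.73 to 0.88) and for Defb6 (0.74), Skint3 for Krt79 (0.63), the zinc finger factor Egr2 for Gata6 (0.60) and Teddm3 for Defb1 (0.54). Next for Krt79 came Egr2, Sdr16c6, Cyp2b19 and Foxc1. For Gata6 they were Skint3, Nebl, Ano9 and Foxc1. Psapl1, Teddm3, Skint3 and Spink5, a protease inhibitor of cornifying epidermis, followed for Cst6, and Skint3, Egr2, Ano9 and Atp6v1c2 for Defb6. Defb1 shared Teddm3 with Cst6, and its next genes were Ptgr1, Calhm5, Plet1 and Ehf. A mean correlation above 0.5 was reached by 55 genes for Cst6, 37 for Defb6, 19 for Krt79, 11 for Gata6 and 3 for Defb1.

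Of 7 other genes of the upper follicle (Krt17, Klk10, Atp6v1c2, Teddm3, Nebl, Prdm1 and Plet1, which is also in the junctional zone list), 0 were called and 7 had a log2 fold change above 0 against 0w at each later time point, with medians of 0.93, 1.00 and 1.28, where 48.2%, 53.4% and 52.0% of all genes lay above 0. This list was chosen with earlier results of these data known. Atp6v1c2, Teddm3, Nebl and Plet1 are also among the genes named above as most like the duct genes. The shared direction is therefore no separate evidence. Plates overlapped with those of 0w for Nebl and Prdm1 at 1w pw1, for Krt17, Klk10 and Prdm1 at 8w pw1 and for Klk10 at 1w pw2. Teddm3 stood at 34.5 and 44.8 CPM at 0w and at 112 to 240 CPM on the later plates, with a log2 fold change of 2.35 (SE 0.47) at 1w pw1 and an edgeR adjusted p of 0.0671. Unadjusted, 2, 2 and 3 of the 7 were higher with an edgeR p under 0.05 in the 3 comparisons, beside 5.45%, 3.80% and 6.82% of all genes.

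Cystatin M/E acts on the proteases legumain and cathepsin L, and thereby on the transglutaminases that build the cornified envelope. Of these partners (Lgmn, Ctsl, Ctsd, Tgm1, Tgm3 and Tgm5), 0 of 6 were called in any comparison, and at an unadjusted edgeR p under 0.05, 3 were higher at 1w pw1 than at 0w, 1 at 8w pw1 and 3 at 1w pw2. The shares of all genes are those just given. Lgmn, for legumain, was the only partner with a log2 fold change below 0 against 0w, at -0.92, -0.44 and -0.01 in time order. It stood at 13.2 and 13.9 CPM at 0w and at 6.28 and 7.97 CPM at 1w pw1. Ctsl, for cathepsin L, stood at 222 and 174 CPM at 0w, 457 and 360 CPM at 1w pw1, 205 and 315 CPM at 8w pw1, and 241 and 219 CPM at 1w pw2. Ctsd, for cathepsin D, stood at 64.2 and 105 CPM at 0w, 106 and 165 CPM at 1w pw1, 125 and 215 CPM at 8w pw1, and 201 and 277 CPM at 1w pw2, higher on both 1w pw2 plates than on both 0w plates.

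Of the other GATA factors and their cofactors, 4 of 7 were in the table and 2 were tested, with 0 called. Gata3, a factor of epidermis and follicle inner root sheath, stood at 56.7 and 98.3 CPM at 0w, 100.6 and 65.0 CPM at 1w pw1, 27.2 and 28.0 CPM at 8w pw1, and 72.5 and 72.6 CPM at 1w pw2. Its 8w pw1 plates were the lowest of the 8, and its log2 fold change there was -1.49 (SE 0.49, edgeR unadjusted p = 0.0127, adjusted p = 0.685).

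Of 11 other antimicrobial genes, 7 were tested and 0 called. S100a8, a calcium-binding protein of inflamed epidermis, stood at 0.519 and 2.86 CPM at 0w, 12200 and 2635 CPM at 1w pw1, 315 and 0.13 CPM at 8w pw1, and 640 and 1088 CPM at 1w pw2 (log2 fold change 12.1, SE 2.73, edgeR adjusted p = 0.0945 at 1w pw1 against 0w). Its partner S100a9 had 0 counts on both 0w plates and stood at 1970 and 276 CPM at 1w pw1. The further defensins Defb2, Defb3, Defb4 and Defb14 did not exceed 6.91 CPM on any plate.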

How the data were processed

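Single keratinocytes were sequenced with Smart-seq2 (full-length cDNA, 25 PCR cycles, no molecular identifiers). The authors deposited their estimated counts as a single table, which Salmon 0.13.1 had produced against an Ensembl annotation of GRCm38. No normalisation had been applied to these expected counts, of which 87.8% of the values above 0 were whole (within 1e-06). The table had already been filtered so that each cell had 1000 or more genes and no more than 50% mitochondrial counts. All 696 columns matched a sample.

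Counts were summed per plate, rounded, and fitted with edgeR 4.0.16 (R 4.3.3) on all 8 plates with the time point as the only term, TMM scaling and the default low-count filter. All 5 genes passed that filter, which left 13853 genes for the Benjamini-Hochberg adjustment. The biological coefficient of variation was 0.61, with 4 residual degrees of freedom. With 2 plates against 2, an exact permutation test cannot go below a p of 0.333. The edgeR fit was tested on simulated plate sums, and the other steps were not simulated. Replicate plates had a Pearson correlation of 0.898 to 0.950 across genes of log2(CPM + 1).

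Single-cell values are CPM of the unrounded counts, and rounded counts were used to find positive cells and for thinning. Correlations use log2(CPM + 1) within a plate, and intervals are exact (Clopper-Pearson). Thinning gave the expected share at 20000 counts and left out shallower cells. The genes, lists, tests and most alternatives were chosen with earlier results of these data known. The share at 1000 CPM, the lists without Postn or Plet1 and the fit without the top cell of each gene were added after these data were seen. Genes named as most alike are the 5 per gene, and 10 for the sum, with the highest mean correlation, without predicted models and pseudogenes. Not reported here are 1 gene for the sum and 1 that was left out of the upper follicle list before its counts were made. Of the other lists, called genes or the most abundant were named, and Teddm3, Gata3 and the S100 genes were singled out after their values were seen.

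The replicate numbers of the plates come from the labels. Deviations of replicate 1 from the group mean correlated at 0.121 to 0.213 over the 6 pairs of groups, with 2 numbers in each. Alternatives were DESeq2 1.42.0, other filters and scalings, the replicate block, and each plate left out.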

Additional observations from a re-analysis of the deposited data

How the results depend on the processing

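The count of called genes among the 5 was 0 in 94 of 95 alternative fits over the 6 comparisons. The exception was the replicate block, which pairs plates by their number: it called 1 gene, Krt79, at 1w pw1 against 0w (log2 fold change 1.59), while calls over all genes in that comparison went from 73 to 236. The block changed no other call of the 5. All-gene calls of that comparison were 723 with DESeq2, 126 with only the plates compared and 8 (without 0w replicate 2) to 93 with 1 plate left out. Those of 1w pw2 against 0w were 37 in the reported fit, 96 with the block, 688 with DESeq2, 12 with only the plates compared and 1 (without 0w replicate 2) to 36 with 1 plate left out.

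Of 475 alternative fold changes of single genes, 33 had the opposite sign, none of them called, and the cause was not tested. For Defb1 at 1w pw1 against 0w (-0.06), the value was 0.50 with every cell scaled equally, 0.11 with the block, 0.80 without the deepest cell of each plate, 1.02 without the top cell of each gene and -0.81 to 1.41 with 1 plate left out. Leaving out 1 plate gave -0.30 to 1.93 for Defb1 at 8w pw1 and -1.72 to 0.49 at 1w pw2. For Defb6 at 1w pw2 against 0w (-0.64), it was 0.47 with cells scaled equally, 0.24 without the deepest cells, 0.62 without the top cells and -1.43 to 1.08 with 1 plate left out. Scaling cells equally gave Gata6 0.011 at 1w pw2 and -0.042 at 8w pw1 against 0w, 0.053 at 1w pw2 against 8w pw1 and 0.28 for the difference between the healings, which was 0.33 without the deepest cells and 0.064 without the top cells. With 1 plate left out, Gata6 ran from -0.52 to 0.33 at 1w pw2 against 0w, -0.041 to 0.99 against 1w pw1 and -0.64 to 0.39 for that difference. For 1w pw2 against 1w pw1, Cst6 was -0.19 and Krt79 -0.080 with cells scaled equally, Krt79 was -0.051 without the deepest cells, and 1 plate left out gave -0.58 to 1.18 for Cst6 and -0.19 to 0.31 for Krt79. Against 8w pw1 the ranges were -0.72 to 1.04 and -0.28 to 0.63.

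Of 192 alternative values for the shares of cells, 94 moved from the reported value and 98 were counted as the same. The share of cells with at least 3 of the genes was 34.7% at 0w and 33.8% at 8w pw1, against 51.9% at 1w pw1 and 58.8% at 1w pw2. At 5 counts or more it was 26.8%, 46.0% and 44.7% at 0w, 1w pw1 and 1w pw2. At 10 CPM it was 48.3% and 52.1%, and thinned to 50000 counts 45.5% and 52.2%, at 1w pw1 and 1w pw2. Thinned to 20000 counts it was 27.8%, 43.5% and 47.7%, without 8w pw1, which stayed within its spread. At 1000 CPM it was 13.4%, 33.3%, 22.1% and 31.2%, and in cells of at least 3000 genes 62.7% at 1w pw2. Thinned to 20000 counts, shares at 1w pw1 went from 34.6% to 21.3% for Gata6 and from 90.7% to 71.9% for Cst6.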
